A study of Homo sapiens with 4 samples.

Results

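The genes described here encode the pre-mRNA splicing regulators of the hnRNP, SR, TRA2, PTB and CLK families, measured in HepG2 cells, a human hepatocellular carcinoma line. The rule that chose them uses names and no measured value, but the choice was made with earlier results of these data known. It takes every protein-coding gene of the expression table whose GENCODE symbol starts with HNRNP or is SRSF followed by a number. It also takes TRA2A, TRA2B, PTBP1, PTBP2, PTBP3, CLK1, CLK2, CLK3 and CLK4. This rule found 48 of the 61906 genes in the table, namely 27 HNRNP, 12 SRSF, 2 TRA2, 3 PTBP and 4 CLK genes. Poly(A) RNA was sequenced from wild-type HepG2 cells exposed to 20 µM pyridostatin (PDS), a small molecule that binds G-quadruplexes (G4s), for 24 h, and from mock-treated cells of the same line, with 2 libraries in each group. The sample titles number the libraries of each group as replicates, but no label says that separate cultures were used. The p-values below therefore rest on how far 2 libraries of a group lie apart, and that distance can be technical.

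HnRNP proteins coat nascent transcripts, and many of them bind splicing silencers and keep nearby exons out of the mRNA. SR proteins, encoded by the SRSF genes, carry RNA-recognition motifs and a domain rich in arginine and serine, and mostly promote the use of the exons they bind. TRA2 proteins are related activators, PTB proteins bind pyrimidine-rich sequence and repress exons, and CLK kinases phosphorylate the arginine-serine domains. Many of these genes make alternative transcripts with a premature stop codon (often through a "poison exon") that are removed by nonsense-mediated decay, and CLK1 is known for keeping part of its transcripts in the nucleus with introns retained. The values below are totals per gene and cannot tell such isoforms apart.

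Library size and composition differed between the groups. The total that could be recovered from the steps between low values was 15573155 and 19647894 reads in the PDS libraries, against 39217657 and 30408386 reads in the mock libraries. Transcripts of the mitochondrial genome made up 36.5% and 36.4% of all TPM (transcripts per 1e6, a share scaled by gene length) in PDS-treated cells, against 15.3% and 14.5% in mock-treated cells. TPM is a share of a fixed total, and the median tested gene was 0.55 lower on the log2 scale in PDS-treated cells by the deposited values. Changes are therefore given relative to the median gene, after dividing each library by its median ratio to the geometric mean, as log2(scaled TPM + 1), with limma's moderated test and Benjamini-Hochberg adjustment over 14686 genes that averaged at least 1 TPM. All 8 hepatocyte markers examined were expressed, together at 40720 and 39411 TPM in PDS libraries and 44999 and 48455 TPM in mock libraries. As a share of TPM outside the mitochondrial genome they took 6.30% with PDS and 5.49% in mock, and relative to the median gene 6 of the 8 were higher and 2 lower. Their direction depended on the scaling: 2 were higher and 6 lower after quantile normalization, and 2 and 4 in the TPM as deposited. Markers of other cell types were low, with the leukocyte marker PTPRC at no more than 0.0732 TPM in every library. The leukocyte list of 4 genes summed to 2.57 and 2.22 TPM in PDS and 3.99 and 4.33 TPM in mock libraries. In that list, 1 gene averaged at least 1 TPM. The endothelial list averaged 2.51 TPM in PDS and 3.90 TPM in mock libraries. The fibroblast list summed to 12.2 to 14.6 TPM in PDS and 19.9 to 20.6 TPM in mock libraries, nearly all of it PDGFRB. In such bulk samples, fewer cells and less RNA per cell cannot be told apart.

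Of the 48 genes, 43 averaged at least 1 TPM and were tested, including all SRSF, TRA2, PTBP and CLK genes and 22 of the 27 HNRNP genes. HNRNPA1L2, an HNRNPA1-like gene, was listed at 0 in all 4 libraries, and HNRNPCL2, HNRNPCL3, HNRNPCL4 and the readthrough gene HNRNPUL2-BSCL2 lay below 0.636 TPM in every library. Relative to the median gene, 14 splicing regulators fell, 1 rose and 28 did not pass the test at an adjusted p of 0.05. Across all tested genes 13.0% were lower and 16.2% higher. Among tested protein-coding genes these shares were 15.5% and 16.5%. The median log2 fold change was −0.16 over the 43 tested splicing regulators, compared with −9.2e-05 over all tested genes and −0.02 over tested protein-coding genes. After scaling, both PDS libraries lay below both mock libraries for 29 of the 43 genes, where 35.6% of all tested genes did so, and above both mock libraries for 6, where 35.2% of all tested genes did so. With 2 libraries per group, an exact two-sided permutation test of a single gene cannot go below p = 0.333, so the calls rest on the spread that limma shares across genes.

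How many of these genes counted as lower depended on what they were set against. In the deposited TPM, without rescaling, 41 of the 43 were lower and 0 higher (unadjusted p below 0.05: 42 lower and 0 higher), with a median of −0.79, where 71.8% of all tested genes were lower and 2.58% higher. As shares of the TPM outside the mitochondrial genome, 31 were lower and 0 higher (32 and 0 at the unadjusted level), with a median of −0.39, where 33.2% of all genes were lower and 7.93% higher. After quantile normalization 25 were lower and 1 higher, with a median of −0.28, where 16.0% of all genes were lower and 12.6% higher. The same 14 genes that fell relative to the median gene were also lower under each of these 3 other scalings.

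**Figure D1:**
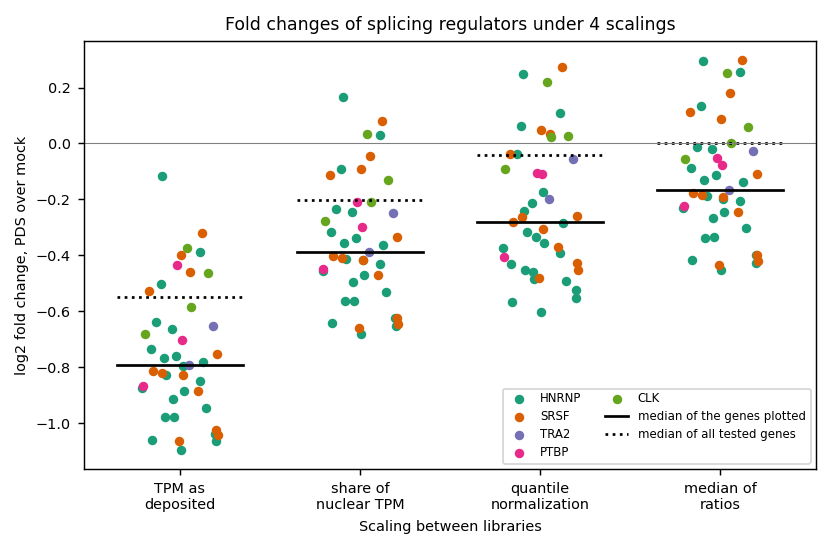
Log2 fold change (PDS over mock) of each tested splicing regulator under 4 scalings of the same libraries, with the median of all tested genes drawn for each. The median over the 43 genes is −0.16 relative to the median gene and −0.79 in the TPM as deposited, where the median of all tested genes is itself −0.55.

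By deposited level, the 48 genes together took 0.351% ± 0.000641 of all TPM in PDS-treated cells and 0.613% ± 0.0207 in mock-treated cells (SD, n = 2 each). Outside the mitochondrial genome the shares were 0.552% ± 0.00166 with PDS and 0.720% ± 0.0197 in mock (SD, n = 2 each). The ratio of mean TPM, PDS over mock, lay between 0.465 and 0.879 for the 43 tested genes, with a median of 0.567. The median ratio over all tested genes was 0.640, and 89.8% of them were below 1. The order of levels within the group stayed similar: HNRNPA1 was the most abundant and HNRNPK the next in each of the 4 libraries.

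**Figure D2:**
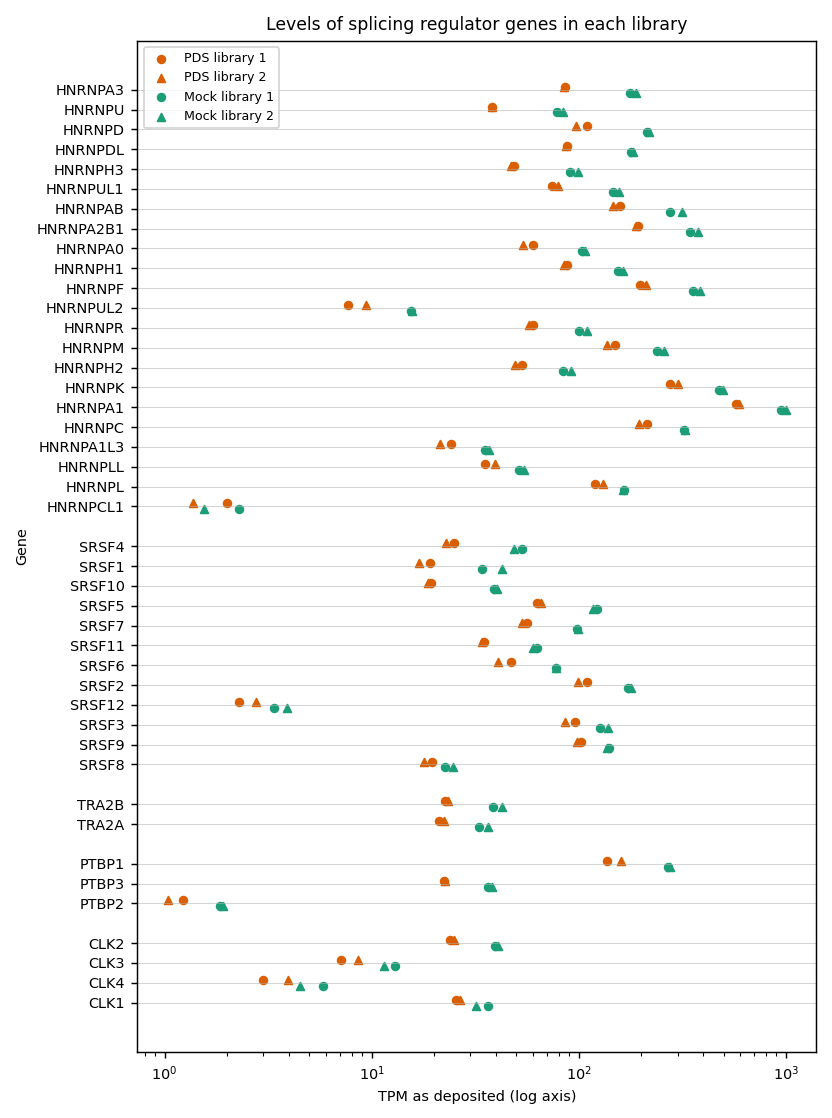
TPM as deposited of the splicing regulators in the 2 PDS and 2 mock libraries on a log axis, ordered by family. HNRNPA1 and HNRNPK lead in every library, and the PDS libraries lie below the mock libraries for every gene shown except HNRNPCL1; 89.8% of all tested genes were lower by mean TPM.

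Most of the genes that fell encode hnRNPs. Of the 22 tested HNRNP genes, 10 fell, 0 rose (1 at an unadjusted limma p below 0.05) and 12 did not pass the test, with a median of −0.20. Of tested protein-coding genes 15.5% fell and 16.5% rose. HNRNPA3, a nuclear A/B-type hnRNP on chromosome 2, had 85.6 and 84.5 TPM in PDS libraries, against 177 and 189 TPM in mock libraries. This was −0.45 ± 0.0509 relative to the median gene (log2, SE, limma adjusted p = 0.00769), the most negative value of the 43 tested genes. HNRNPD (AUF1), which also binds AU-rich elements and affects mRNA decay, had 109 and 97.0 TPM with PDS and 214 and 218 TPM in mock (−0.42 ± 0.0670, adjusted p = 0.0150). Its paralog HNRNPDL, which lies close to it on chromosome 4, had 87.9 and 86.6 TPM with PDS and 178 and 183 TPM in mock (−0.40 ± 0.0482, adjusted p = 0.0088). For these 3 genes both PDS libraries lay below both mock libraries, also after scaling, where 35.6% of all tested genes did so.

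HNRNPU, a large nuclear protein that binds RNA and chromatin, had 38.3 and 38.3 TPM with PDS, against 78.6 and 83.9 TPM in mock (log2 −0.43 ± 0.0526, limma adjusted p = 0.00913). HNRNPUL1, its relative, had 74.4 and 79.1 TPM with PDS and 147 and 157 TPM in mock (−0.34 ± 0.0617, adjusted p = 0.0196). HNRNPH3, a member of the F/H type, whose proteins bind runs of guanines in RNA, had 48.4 and 46.9 TPM with PDS and 91.0 and 98.7 TPM in mock (−0.34 ± 0.0544, adjusted p = 0.0150). The other hnRNP genes that fell changed less: HNRNPAB (−0.30, adjusted p = 0.0346), HNRNPA2B1 (−0.27, 0.0243), HNRNPA0 (−0.25, 0.0463) and HNRNPH1 (−0.23, 0.0280). Subtypes were grouped after the values were seen. The genes that fell were 6 of 7 of the A/B type (median −0.30) and 2 of 3 of the U type (−0.34). They were 2 of 4 of the F/H type (−0.22) and 0 of 2 of the L type (0.19). Of tested protein-coding genes 15.5% fell. The A/B grouping left out the tested gene HNRNPA1L3, which lay at −0.01 and did not pass.

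The 2 most abundant hnRNPs did not pass the test. HNRNPA1, which represses exons and shuttles between nucleus and cytoplasm, had 574 and 591 TPM with PDS and 947 and 996 TPM in mock, a log2 value of −0.09 ± 0.0559 relative to the median gene (limma adjusted p = 0.282). HNRNPK, which binds cytosine-rich sequence, had 274 and 300 TPM with PDS and 474 and 499 TPM in mock (−0.11 ± 0.0697, adjusted p = 0.274). HNRNPC, which binds runs of uridines, lay at −0.02 and HNRNPM at −0.14. HNRNPF (−0.20), HNRNPUL2 (−0.20), HNRNPR (−0.19), HNRNPH2 (−0.13) and HNRNPA1L3 (−0.01) were negative without passing.

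The 3 HNRNP genes with positive values relative to the median gene were HNRNPL, its paralog HNRNPLL and HNRNPCL1. HNRNPL, which binds CA-rich elements, had 119 and 131 TPM with PDS and 165 and 163 TPM in mock (0.26 ± 0.0721, limma adjusted p = 0.0546), and HNRNPLL had 35.2 and 39.2 TPM with PDS and 51.5 and 54.5 TPM in mock (0.13 ± 0.0764, adjusted p = 0.244). After scaling, both PDS libraries lay above both mock libraries for HNRNPL and HNRNPLL, as they did for 35.2% of all tested genes. Summed, this pair took 0.0255% of the TPM outside the mitochondrial genome in PDS-treated as in mock-treated cells, while the A/B-type genes took 0.198% with PDS and 0.272% in mock. All 3 genes were negative in the TPM as deposited (HNRNPL −0.39, HNRNPLL −0.50 and HNRNPCL1 −0.12), and HNRNPL passed the test as higher among genes that averaged at least 5 TPM (0.25) and with the exon length trend removed (0.32). HNRNPCL1, an HNRNPC-like gene, rested on 12 to 31 reads per library.

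Of the 12 SRSF genes, 4 fell, 1 rose and 7 did not pass the test, with a median of −0.18. Of tested protein-coding genes 15.5% fell and 16.5% rose. SRSF4 (SRp75) had 25.0 and 22.8 TPM in PDS libraries, against 53.1 and 48.9 TPM in mock libraries (−0.43 ± 0.0802, limma adjusted p = 0.0198). SRSF1, the founding SR protein (SF2/ASF), had 19.1 and 16.9 TPM with PDS and 34.0 and 42.6 TPM in mock (−0.42 ± 0.110, adjusted p = 0.0454), with mock libraries further apart than those of the other SRSF genes that fell. SRSF10 (SRp38), which can act as a general splicing repressor when it is dephosphorylated, had 19.4 and 18.6 TPM with PDS and 39.0 and 40.5 TPM in mock (−0.40 ± 0.0545, adjusted p = 0.0108). SRSF5 (SRp40) had 63.1 and 66.1 TPM with PDS and 123 and 117 TPM in mock (−0.25 ± 0.0665, adjusted p = 0.0484). For these 4 genes both PDS libraries lay below both mock libraries, also after scaling, where 35.6% of all tested genes did so. SRSF1 and SRSF5 lay close to the threshold of the test.

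SRSF8, which arose as a retrocopy of SRSF2, was the only regulator of the 43 called higher. It had 19.5 and 17.9 TPM with PDS and 22.5 and 24.6 TPM in mock, which is 0.30 ± 0.0679 above the median gene (limma adjusted p = 0.0319). Its direction depended on the scaling: it was lower in the TPM as deposited (−0.32) and at 0.08, not past the threshold, as a share of TPM outside the mitochondrial genome. The call was lost when any 1 of the 4 libraries was left out (0.25 to 0.35) and without the filter on low values. How reads that match both SRSF8 and SRSF2 were assigned is not given in the sources used here. SRSF2 (SC35), the most abundant SRSF gene by mean level, had 109 and 98.7 TPM with PDS and 172 and 179 TPM in mock (−0.11 ± 0.0612, adjusted p = 0.234). SRSF9 had 103 and 98.4 TPM with PDS and 140 and 137 TPM in mock (0.18 ± 0.0558, adjusted p = 0.0664). The levels of SRSF2 and SRSF9 overlapped between the PDS libraries but not between the mock libraries.

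SRSF7 (9G8), with 56.2 and 53.4 TPM with PDS and 97.6 and 98.6 TPM in mock, missed the threshold narrowly (−0.19, limma adjusted p = 0.0502). SRSF11 (−0.19), SRSF6 (−0.18), SRSF12 (0.09) and SRSF3 (0.11), the smallest SR protein, did not pass either. In these families, values relative to the median gene thus ran between −0.43 and 0.30 for SRSF and between −0.45 and 0.29 for HNRNP genes.

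**Figure D3:**
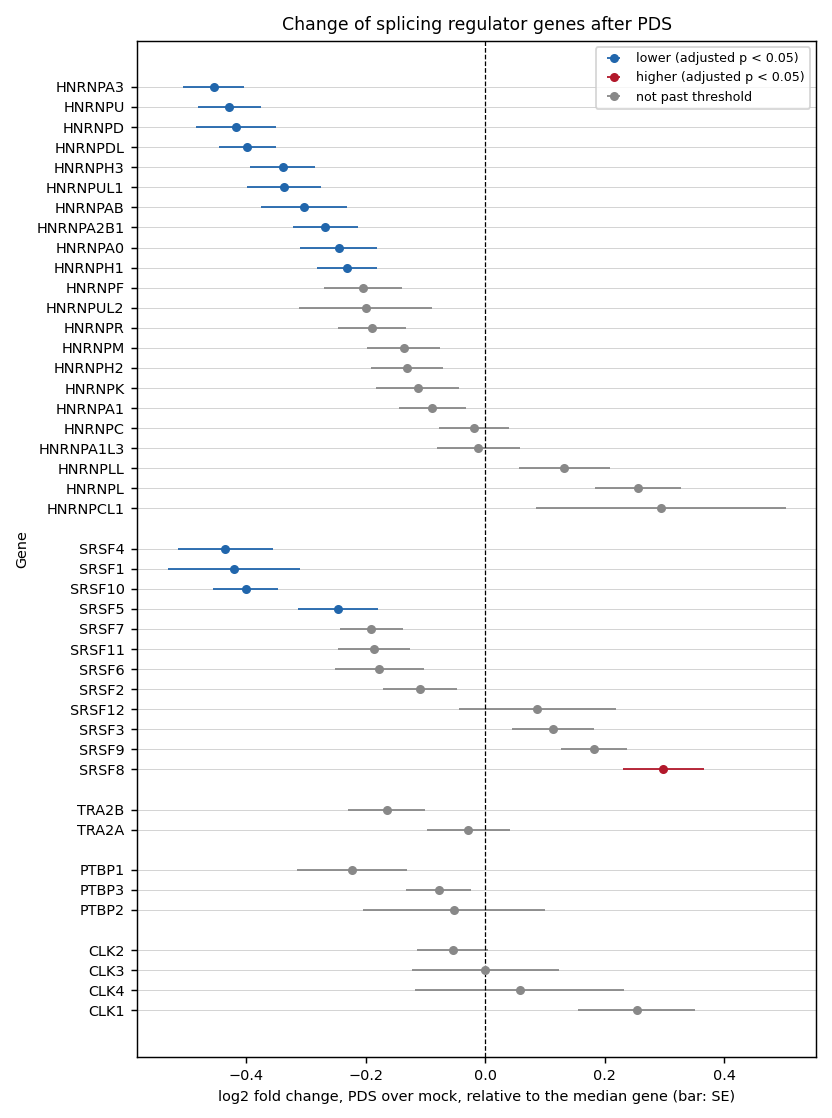
Log2 fold change (PDS over mock) relative to the median gene for the 43 tested splicing regulators, with bars of 1 SE from limma and colour by call at an adjusted p of 0.05. The 14 genes that fell are HNRNP and SRSF genes, SRSF8 is the only gene called higher, and no TRA2, PTBP or CLK gene passed the test.

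None of the 9 TRA2, PTBP and CLK genes passed limma's test in either direction relative to the median gene. At an unadjusted limma p below 0.05, CLK1 alone was higher and 0 were lower. In the TPM as deposited 8 of the 9 genes were lower, where 71.8% of all tested genes were lower. TRA2B, which activates exons with GAA-rich enhancers, had 22.6 and 23.4 TPM with PDS and 38.6 and 42.5 TPM in mock (−0.16 ± 0.0641, adjusted p = 0.115). TRA2A had 21.0 and 22.4 TPM with PDS and 33.1 and 36.3 TPM in mock (−0.03 ± 0.0691, adjusted p = 0.784). PTBP1, the main PTB outside the nervous system, had 137 and 161 TPM with PDS and 269 and 274 TPM in mock (−0.22 ± 0.0926, adjusted p = 0.133). Its PDS libraries differed from each other more than its mock libraries did: without PDS replicate 1 the value was −0.10, and without PDS replicate 2 it was −0.35 and passed the test as lower, as it also did after quantile normalization (−0.41), as a share of TPM outside the mitochondrial genome (−0.45) and in the TPM as deposited (−0.87). PTBP3 had 22.4 and 22.6 TPM with PDS and 36.5 and 38.0 TPM in mock (−0.08), and PTBP2, the neuronal paralog, had 1.22 and 1.04 TPM with PDS and 1.85 and 1.90 TPM in mock (−0.05).

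CLK1 had the largest positive value of the kinases, with 25.4 and 26.8 TPM in PDS libraries and 36.6 and 31.8 TPM in mock libraries (0.25 ± 0.0974, limma adjusted p = 0.112). CLK2 had 24.0 and 25.1 TPM with PDS and 39.3 and 40.7 TPM in mock (−0.05). CLK3 had 7.11 and 8.55 TPM with PDS and 13.0 and 11.5 TPM in mock (0.00034), and CLK4 had 2.98 and 3.94 TPM with PDS and 5.80 and 4.50 TPM in mock (0.06). CLK1 was the only kinase whose scaled PDS libraries both lay above both mock libraries, and CLK2 the only one with both below. Of all tested genes, 35.2% lay above both mock libraries in this way and 35.6% below. The scaled values of CLK3 and CLK4 overlapped between the groups.

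The 14 calls of lower level kept their sign under all 12 alternative settings but not always their significance. With limma, leaving out PDS replicate 1 left 3 of the 14 past the threshold (HNRNPA3, HNRNPD and HNRNPDL), leaving out PDS replicate 2 left 6, and leaving out mock replicate 1 or mock replicate 2 left 0, where 13 (without mock replicate 1) and 14 (without mock replicate 2) of the 43 genes were lower at an unadjusted p below 0.05. Removing the trend of the log2 ratio on exon length left 8, and ended the calls of SRSF4 (−0.32), SRSF1 (−0.38), SRSF5 (−0.22), HNRNPA2B1 (−0.11), HNRNPA0 (−0.13) and HNRNPH1 (−0.10).

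Other splicing factors moved in part alongside these families. In all, 5 lists of 127 further genes were examined, of which 122 were tested. Relative to the median gene 43 fell (35.2%) and 7 rose (5.74%), with a median of −0.19. Across all tested genes 13.0% were lower and 16.2% higher, and among tested protein-coding genes 15.5% and 16.5%. Among SR-related proteins and SR protein kinases, 12 of 24 fell and 0 rose (0 also at an unadjusted limma p below 0.05), with a median of −0.27. PNN (pinin), a nuclear speckle protein tied to the exon junction complex, had 98.3 and 96.4 TPM with PDS and 263 and 253 TPM in mock (−0.75, limma adjusted p = 0.00549). SRRM2 (−0.64), a large scaffold protein of nuclear speckles, and SRRM1 (−0.54) fell as well, as did SCAF4 (−0.46), which binds the tail of RNA polymerase II.

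Of 28 tested genes for U5, tri-snRNP and catalytic spliceosome proteins, 12 fell and 1 rose (median −0.21), where 15.5% of tested protein-coding genes fell and 16.5% rose. SNRNP200, the helicase that unwinds U4/U6, had 57.9 and 58.4 TPM with PDS and 146 and 155 TPM in mock (−0.72), and PRPF8, the core protein of the catalytic centre, had 45.2 and 51.2 TPM with PDS and 116 and 119 TPM in mock (−0.63). DHX38 (−0.55), a helicase, fell as well, and BUD31 rose (0.45). Of 25 U1, U2 and core snRNP genes, 6 were higher and 6 lower relative to the median gene (median −0.04). This balance depended on the scaling: 2 were higher and 10 lower after quantile normalization, 1 and 13 as shares of TPM outside the mitochondrial genome, and 0 and 25 in the TPM as deposited. Of all tested genes 16.0%, 33.2% and 71.8% were lower in these scalings, and 12.6%, 7.93% and 2.58% higher. The large U2 proteins SF3B3 (−0.53) and SF3B1 (−0.47) fell, and the small proteins SF3B5 (0.42) and SNRPG (0.38) rose. SF3B5, SNRPG and BUD31 were negative in the TPM as deposited (−0.23, −0.27 and −0.18), and with the exon length trend removed 1 core snRNP gene was called higher and 6 lower.

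Among other sequence-specific regulators such as the RBFOX, MBNL and FET proteins, 10 of 30 tested genes fell and 0 rose (4 at an unadjusted limma p below 0.05), with a median of −0.17. They included TAF15 (−0.63), KHSRP (−0.39), MBNL3 (−0.37) and RAVER1 (−0.35), a cofactor of PTB. Of 15 exon junction complex and nonsense-mediated decay genes, 3 fell and 0 rose (1 at an unadjusted p below 0.05), with a median of −0.09. The 3 genes were the kinase SMG1 (−0.53), the helicase UPF1 (−0.33) and CASC3 (−0.29). This share of 20.0% lay near the 15.5% of tested protein-coding genes that fell. Over the 5 lists, 9 genes were called lower without PDS replicate 1, 15 without PDS replicate 2 and 0 without mock replicate 1 or 2 (45 each at an unadjusted limma p below 0.05).

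**Figure D4:**
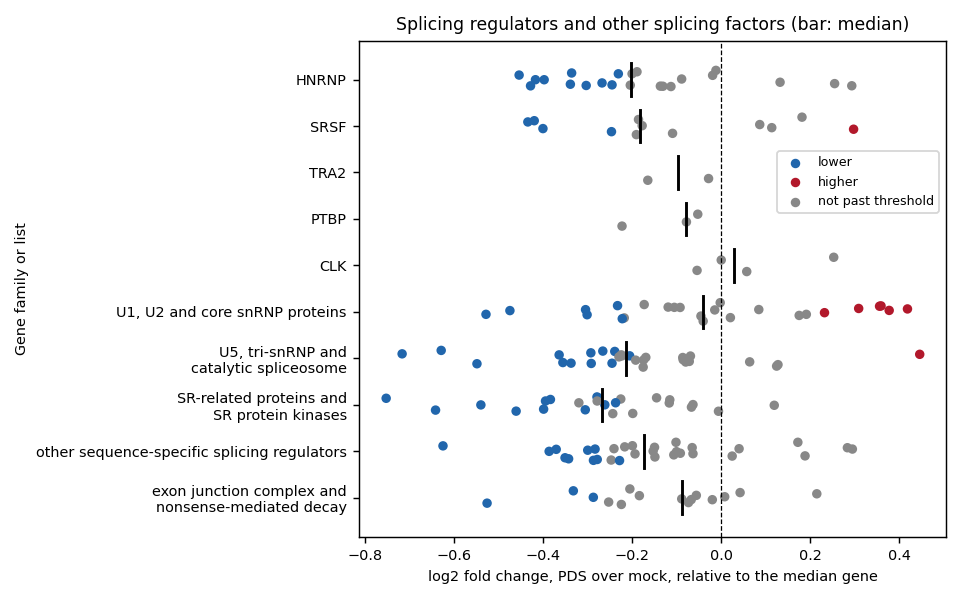
Log2 fold change (PDS over mock) relative to the median gene for each tested gene of the 5 splicing regulator families and of 5 lists of other splicing factors, coloured by limma call, with a bar at each median. Medians are −0.20 for HNRNP, −0.18 for SRSF and 0.03 for CLK genes, and the SR-related list has the lowest median (−0.27).

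Because PDS binds G4s, the promoters were searched for a sequence able to fold into one. The window was 250 bases before to 50 bases after each RefSeq start site (GRCh38.p14), and the motif was 4 runs of GGG or longer separated by loops of 1 to 7 bases of any kind, on either strand. It occurred in 13 of the 39 tested regulators found in the promoter table (33.3%), compared with 3772 of 9129 tested protein-coding genes (41.3%). Among the genes that fell, 4 of 14 held it, and among those that did not pass, 9 of 24. The median log2 fold change was −0.20 for the 13 genes with the motif and −0.17 for the 26 without it. HNRNPA1, HNRNPA1L3, HNRNPCL3, SRSF2 and TRA2A had no promoter window available and were not searched. A match is a description of letters and not a measured G4.

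The matches in the 4 genes that fell are shown 5′ to 3′ on the sense strand of the gene with runs of guanines in capitals, followed by those of HNRNPL, the hnRNP with the most matches, whose first and second matches lie on the opposite strand and therefore show runs of cytosines.
HNRNPDL (chr4:82430537-82430558, minus strand): GGGttcggcGGGGcGGGGaGGG
HNRNPH1 (chr5:179634991-179635013, minus strand): GGGagcGGGGGcaGGGGctGGGG
HNRNPH3 (chr10:68332657-68332684, plus strand): GGGaaaggccGGGcagttGGGtggaGGG
HNRNPUL1 (chr19:41264991-41265019, plus strand): GGGGGGacactGGGGGaGGGGcctctGGG
HNRNPL (chr19:38852426-38852450, minus strand): CCCCgctCCCgcgCCCCCtgCCCCC
HNRNPL (chr19:38852364-38852385, minus strand): CCCtttaaggCCCgCCCCtCCC
HNRNPL (chr19:38850016-38850038, minus strand): GGGtGGGGGcggcGGGtgacGGG

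A promoter window of HNRNPDL that holds its match and the window of HNRNPA3, which both fell, are shown with runs of 3 or more G or C in capitals. The HNRNPDL window shown (69.7% G or C) has 13 runs of guanines and 6 of cytosines, and the HNRNPA3 window (70.0%) has 0 runs of guanines and 16 of cytosines, with no match to the motif. A second HNRNPDL start site has a window (chr4:82430176-82430475, 73.3% G or C) with 10 runs of guanines and 15 of cytosines, and it holds no match either.
HNRNPDL (chr4:82430413-82430712, minus strand): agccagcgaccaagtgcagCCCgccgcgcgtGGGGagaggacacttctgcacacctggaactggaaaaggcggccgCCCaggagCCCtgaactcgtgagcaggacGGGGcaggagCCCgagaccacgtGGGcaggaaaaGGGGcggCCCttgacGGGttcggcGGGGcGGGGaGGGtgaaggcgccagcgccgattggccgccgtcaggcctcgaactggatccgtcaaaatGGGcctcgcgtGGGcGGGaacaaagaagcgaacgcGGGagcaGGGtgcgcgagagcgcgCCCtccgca
HNRNPA3 (chr2:177212544-177212843, plus strand): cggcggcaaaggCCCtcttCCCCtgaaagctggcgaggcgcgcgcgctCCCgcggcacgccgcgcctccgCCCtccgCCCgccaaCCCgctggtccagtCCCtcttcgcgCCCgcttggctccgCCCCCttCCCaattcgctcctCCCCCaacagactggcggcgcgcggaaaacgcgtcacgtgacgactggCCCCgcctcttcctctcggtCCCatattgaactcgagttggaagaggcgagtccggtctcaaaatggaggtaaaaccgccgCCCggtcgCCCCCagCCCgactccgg

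The annotation of these genes is rich in unproductive transcripts. GENCODE lists at least 1 transcript subject to nonsense-mediated decay for 33 of the 43 tested regulators (76.7%), compared with 48.1% of 11173 tested protein-coding genes, and for all 12 SRSF genes. A retained-intron transcript is listed for 32 (74.4%), compared with 61.6% of tested protein-coding genes. The regulators also have more annotated transcripts, with a median of 13 compared with 8. Of the genes that fell, 11 of 14 have a transcript subject to decay, and of those that did not pass, 21 of 28. The levels of these transcripts were not measured by the gene totals.

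Overlapping genes and copies limit some of the values, since the strand setting of the counting is not given in the sources used here. HNRNPA3 (chr2:177212694-177223959, plus strand) shares 3509 bases, 53.6% of its exon length, with NFE2L2 on the opposite strand, which itself fell (21.6 and 22.1 TPM with PDS, 40.4 and 45.9 TPM in mock, −0.32). SRSF9 shares 43.6% of its exon length with GATC, SRSF2 27.7% with MFSD11 and HNRNPU 15.6% with COX20, each on the opposite strand, and none of these 3 partners passed the test. HNRNPUL2 shares 44.3% of its exon length with HNRNPUL2-BSCL2, and SRSF1 32.7% with an unnamed gene, on the same strand. How reads shared with processed pseudogenes, or by HNRNPA1 with HNRNPA1L3 and HNRNPC with the HNRNPCL genes, were split is not given either.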

How the data were processed

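Poly(A) RNA of 2 PDS-treated and 2 mock-treated HepG2 libraries was measured. The authors deposited 1 table of TPM per gene and library, a signal scaled by gene length and to a fixed total per library. Per the labels and processing notes, reads were processed with STAR 2.7.0, featureCounts 2.0.3 and DESeq2 1.36.0 on GRCh38. No raw counts were used here, and read totals were recovered from the steps between low TPM values. Of 61906 identifiers, 59984 matched the GENCODE annotation with their version. Rows without an identifier were left out. Values were scaled by the median ratio to the geometric mean, transformed as log2(TPM + 1) and fitted with limma 3.58.1 in R 4.3.3 (two-sided, with trend, adjusted over 14686 genes that averaged 1 TPM or more, threshold 0.05). The fit was tested on simulated data that drew both groups from mean mock levels. The simulation therefore lacked the difference in mitochondrial share and does not test the scaling under it. A fold change on this scale understates that of low genes.

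The regulators and lists were chosen with earlier results of these data known. Values per library are given for the regulators past the threshold with the largest changes (up to 8 per direction, mean of at least 5 TPM, groups not overlapping), the 2 most abundant HNRNP and SRSF genes and all TRA2, PTBP and CLK genes, and up to 4 genes past the threshold are named per list. Values per library of SRSF5, SRSF7, HNRNPL and HNRNPLL, and the hnRNP subtypes, were chosen after the values were seen. Alternatives were other scalings, a pseudocount of 0.1, no filter or a mean of at least 5 TPM, replicate number as a block, removal of the exon length trend and leaving out each library. A description of protein repeats was not run. The summed levels of some marker lists are not reported here.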

Additional observations from a re-analysis of the deposited data

How the results depend on the processing

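Over all tested genes 2377 were higher and 1906 lower relative to the median gene, over the splicing regulators 1 and 14, and over the 5 lists 7 and 43. In the TPM as deposited these counts were 379 and 10538, 0 and 41, and 0 and 121. As shares of TPM outside the mitochondrial genome they were 1165 and 4881, 0 and 31, and 2 and 92, and after quantile normalization 25 regulators were lower and 3 list genes higher. Without a filter on low values, where 50562 genes share the adjustment, they were 799 and 438, 0 and 4, and 2 and 9. With a mean of at least 5 TPM or with the exon length trend removed, 2 regulators were higher, SRSF8 and HNRNPL. Leaving out 1 library at a time with limma gave 0 to 1442 higher and 0 to 879 lower genes, 0 higher (1 to 3 at an unadjusted p below 0.05) and 0 to 7 lower regulators, and 0 to 4 higher and 0 to 15 lower list genes. The counts were all 0 without either mock library, where 4635 and 4117 genes still had an unadjusted p below 0.05. The cause of these differences was not tested.

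Replicate numbers are shared between the groups but the labels tie them to no batch, and the difference of replicates 1 and 2 correlated at −0.03 across 14686 genes between PDS and mock. With the replicate number as a block, 1138 genes, 8 regulators and 24 list genes were lower and 0 regulators higher (3 at an unadjusted p below 0.05).

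Some values changed sign. In the TPM as deposited all 10 positive regulators turned negative: SRSF8 was −0.32, SRSF9 −0.46, SRSF3 −0.53, SRSF12 −0.40, HNRNPL −0.39, HNRNPLL −0.50, HNRNPCL1 −0.12, CLK1 −0.37, CLK3 −0.59 and CLK4 −0.46. SF3B5 was −0.23, SNRPG −0.27 and BUD31 −0.18 there. As shares of TPM outside the mitochondrial genome, SRSF9 was −0.043, SRSF3 −0.11, SRSF12 −0.090, HNRNPLL −0.090, CLK3 −0.21 and CLK4 −0.13. SRSF3 was −0.038 after quantile normalization. CLK3 was −0.0058 with a mean of at least 5 TPM. With the exon length trend removed, PTBP3 was 0.030, PTBP2 0.14 and HNRNPC 0.069. Without PDS replicate 2, HNRNPC was 0.028, HNRNPA1L3 0.058 and SRSF12 −0.031. Leaving out 1 library at a time, TRA2A ran between −0.084 and 0.026 (positive without PDS replicate 1 or mock replicate 2), PTBP2 between −0.12 and 0.0072 (positive without PDS replicate 2), CLK3 between −0.13 and 0.13 and CLK4 between −0.12 and 0.23 (both negative without PDS replicate 2 or mock replicate 2). None of these genes except SRSF8, SF3B5, SNRPG and BUD31 passed the threshold in the first place. Read depth limits HNRNPCL1, PTBP2, SRSF12 and CLK4 most.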

Other observations

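Pseudogenes of these families, of any annotated pseudogene type and called copies here, had less summed signal than the regulators. The table holds 139 such genes, of which 27 averaged at least 1 TPM. They summed to 138 and 113 TPM in PDS libraries and to 167 and 182 TPM in mock libraries. The 48 regulators summed to 3512 and 3503 TPM in PDS and to 5982 and 6274 TPM in mock libraries. The 74 copies of HNRNPA1 summed to 67.5 and 54.8 TPM with PDS and 72.7 and 81.1 TPM in mock, and the 16 copies of HNRNPA3 to 26.4 and 21.6 TPM with PDS and 41.7 and 44.9 TPM in mock. For HNRNPA3 this was not small beside the gene itself, at 85.6 and 84.5 TPM with PDS and 177 and 189 TPM in mock. HNRNPA3P6 was the only copy past the threshold (−0.42 relative to the median gene, limma adjusted p = 0.0438). Whether these values are reads of the parent genes was not tested.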
